A study of Arabidopsis thaliana with 12 samples.

Results

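PRK (AT1G32060) encodes phosphoribulokinase and SBPASE (AT3G55800) encodes sedoheptulose bisphosphatase, enzymes of the Calvin cycle of photosynthetic carbon fixation in Arabidopsis thaliana. They were taken as the features that the platform annotation assigns to these genes alone. Each gene had 1 such feature, so the pair makes up 2 of 692 features with 1 gene and 2 of 3439 features in all. Root RNA of 6 samples of the kn09 mutant and 6 samples of the wild type (WT), both of ecotype Wassilevskija, was hybridized to an expression array. Roots of both genotypes had been treated for 48 h with MS medium containing 100 mM glucose, so WT also carried the glucose treatment. The labels call kn09 hypersensitive to proline and place its block in the breakdown of proline in mitochondria, and they name neither the mutated gene nor the number of independent lines. They do not say whether samples of a genotype came from separate cultures, so p-values cover only the variation among the deposited samples, some of which could be technical.

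The Calvin cycle runs in the plastid stroma, in a carbon-fixing step, a reducing step and a branch that rebuilds the CO2 acceptor. SBPASE and PRK both act in the rebuilding branch. The first removes a phosphate from sedoheptulose bisphosphate and so commits carbon to regeneration, and the second makes ribulose bisphosphate, the substrate of Rubisco. Both proteins are encoded in the nucleus and are switched on in the light through the ferredoxin-thioredoxin system, and PRK is held inactive in the dark in a complex with CP12 and glyceraldehyde phosphate dehydrogenase. Light-grown leaves are the usual site of this cycle, and glucose is known to lower the transcripts of many photosynthesis genes in Arabidopsis. Roots live mainly on imported sugar, and here glucose was supplied with the medium.

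Each deposited value is an intensity relative to the brightest feature of its own sample, which stands at 100. The median intensity was 0.109 ± 0.00864 in kn09 and 0.194 ± 0.0413 in WT (SD, n = 6 each), and 398 to 522 features per kn09 sample stood at exactly 0, against 153 to 235 per WT sample. Neither PRK nor SBPASE was at 0 in any sample. None of the 10 root marker loci and none of the 7 green tissue marker loci lay on a feature with 1 gene, so the labelled tissue was not checked against markers here. Gene names were not checked against probe sequences, so each result holds only as far as the annotation of its feature does.

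PRK was higher in kn09 roots than in WT roots in the fit of 6 against 6 samples. It did not pass with consecutively numbered samples blocked or averaged (limma adjusted p = 0.0795 and 0.315). SBPASE had no detectable difference once samples were brought to a common distribution. The deposited PRK intensity in kn09 samples 1 to 6 was 1.95, 1.93, 1.71, 1.88, 1.75 and 1.92, against 1.07, 1.18, 1.87, 1.67, 1.07 and 1.05 in WT samples 1 to 6. The kn09 values were close together, while WT samples 3 and 4 stood far above the other WT samples and within or near the kn09 range. WT sample 3, the highest of its genotype, lay above kn09 samples 3 and 5, so the groups overlapped on this scale. The means were 1.86 ± 0.101 in kn09 and 1.32 ± 0.357 in WT (SD, n = 6 each), which differed by 0.536, with an exact 2-sided permutation p of 0.00866 (0.0108 adjusted over the family of 5 exact tests on these genes).

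After quantile normalization, which gives every sample the same distribution of intensities, the 6 kn09 samples had log2 PRK values of 0.79 to 1.21 and the 6 WT samples had -0.06 to 0.74. The groups no longer overlapped, and the same held for 4.83% of all features in this direction. WT sample 3 was again the WT sample nearest to kn09. The limma fit across all features gave a log2 difference of 0.78 ± 0.19 (SE), a 1.72-fold higher level in kn09 with a 95% interval of 1.29 to 2.29, and a limma adjusted p of 0.0271. At an adjusted p under 0.05, 6.48% of all features were higher in kn09 and 12.8% passed in either direction, and 4.48% of features with 1 gene were higher. PRK had a larger log2 difference than 82.1% of the 692 features with 1 gene.

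The PRK difference was positive under every scaling tried, but its size and its call depended on choices. It was 1.34 with median scaling, 1.09 with scaling to the 75th percentile and 0.53 on the deposited scale, where the median of all features was -0.85. Leaving out kn09 sample 1, kn09 sample 2, WT sample 5 or WT sample 6 gave limma adjusted p of 0.0510, 0.0531, 0.0513 and 0.0531, just past the threshold, and leaving out any other single sample kept it below. With same-numbered samples of the 2 genotypes as a block the limma adjusted p was 0.0775. With consecutively numbered samples as a random block it was 0.0795, and after averaging them to 3 values for each genotype it was 0.315. The correlation within the blocks of consecutive samples, estimated over all features, was 0.476. The 6 samples of a genotype may therefore not count as 6 independent ones in the tests of 6 against 6.

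SBPASE was lower in kn09 on the deposited scale, and that difference was not seen after normalization. Its deposited intensity in kn09 samples 1 to 6 was 0.141, 0.115, 0.166, 0.171, 0.0863 and 0.102, against 0.193, 0.226, 0.279, 0.221, 0.215 and 0.233 in WT samples 1 to 6. Every kn09 sample was below every WT sample, which was also true of 15.4% of all features. The means were 0.130 ± 0.0346 in kn09 and 0.228 ± 0.0283 in WT (SD, n = 6 each), a difference of -0.0977 with an exact permutation p of 0.00216 (0.00361 adjusted over the 5 exact tests), the smallest that 924 labelings can give. Fitted in limma on this unnormalized scale, SBPASE had a log2 difference of -0.84 ± 0.21 (SE) with an adjusted p of 0.0116. That value almost equalled the median of all features on the same scale, -0.85. This median includes features at 0, which were set to a low floor value before taking log2. Among the 2193 features above 0 in all samples the median deposited log2 difference was -0.60. Of these, 38.7% had a lower difference than SBPASE.

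The lower deposited SBPASE level in kn09 thus lay beside a lower level of most features, and the part of that general shift in it was not tested. After quantile normalization the log2 values were -2.94 to -2.25 in kn09 and -2.88 to -2.10 in WT, and the groups overlapped throughout. The log2 difference was -0.03 ± 0.20 (SE), a fold of 0.977 with a 95% interval of 0.718 to 1.33, and a limma adjusted p of 0.925. An unchanged level and changes up to the ends of that interval cannot be told apart. Relative to the median of all features, zeros at the floor included, SBPASE differed by 0.03 after quantile normalization and 0.06 with median scaling. With scaling to the 75th percentile it differed by 0.04 and as deposited by 0.01. PRK differed by 0.84, 1.43, 1.41 and 1.38 in the same settings, in that order. With cyclic loess, zeros as missing or only features above 0 in all samples, SBPASE differed from that median by -0.11, -0.17 and -0.09, and PRK by 0.81, 0.64 and 0.72.

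**Figure D1:**
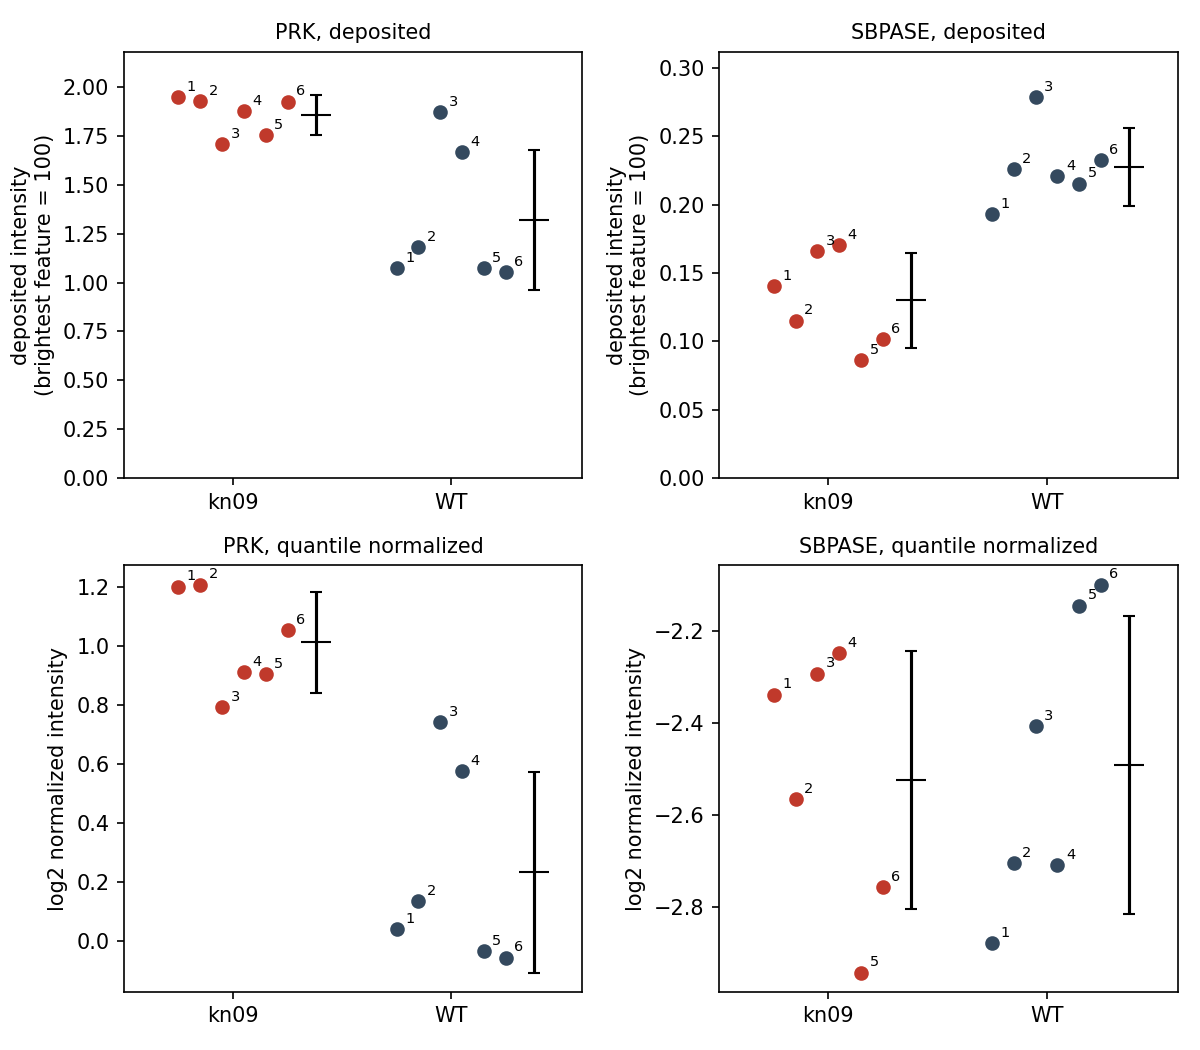
Intensity of PRK (left) and SBPASE (right) in each kn09 and WT sample, as deposited (top, linear, brightest feature of a sample at 100) and after quantile normalization (bottom, log2). Points are samples with their label numbers, and bars are means ± SD (n = 6 each). The 6 kn09 samples lie above the 6 WT samples for normalized PRK and below them for deposited SBPASE, and the normalized SBPASE groups overlap.

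**Figure D2:**
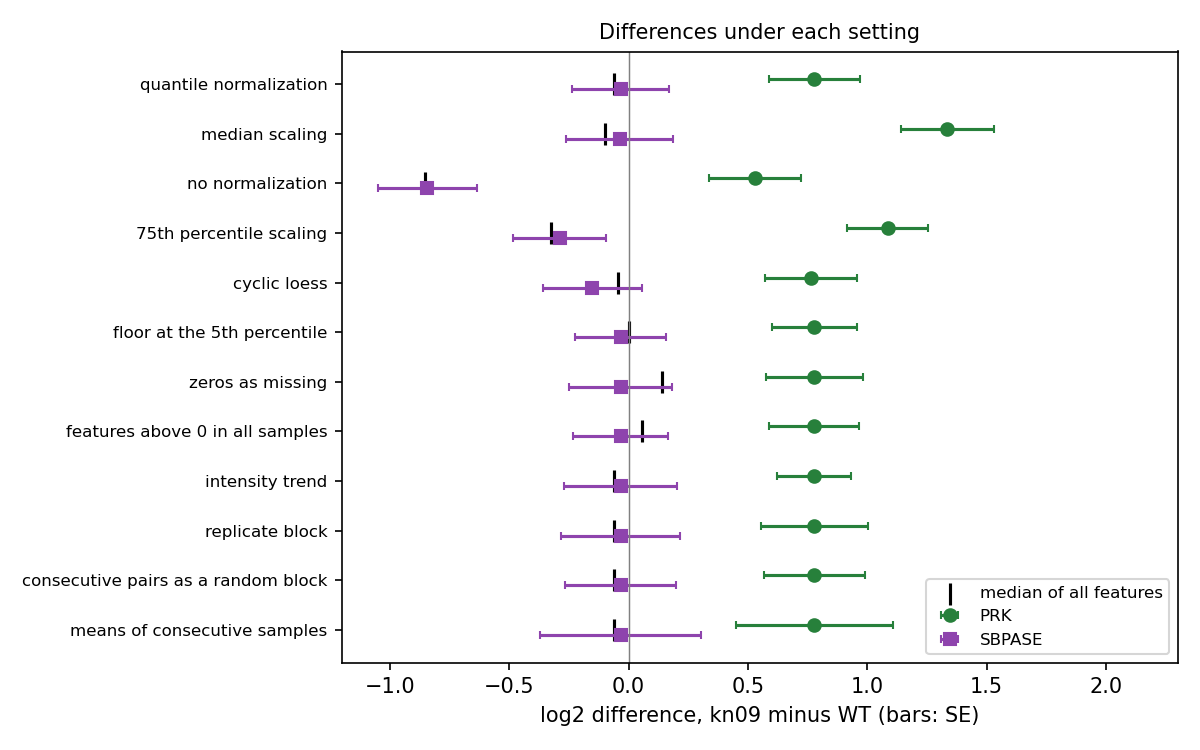
Log2 difference, kn09 minus WT, of PRK and SBPASE under each processing setting, with SE as bars and the median of all features as a black tick. PRK lies between 0.53 and 1.34, and SBPASE lies between -0.84 and -0.03, with gaps to the median of all features from -0.17 with zeros as missing to 0.06 with median scaling.

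Rank within a sample needs no normalization. Quantile normalization itself sets values by that rank, so the ranks restate the normalized result and are not separate support for it. PRK stood 215th to 276th from the brightest of 3439 features in kn09 samples and 284th to 440th in WT samples. In percentiles this was 93.0 ± 0.714 in kn09 and 88.9 ± 1.93 in WT (SD, n = 6 each). Every kn09 sample ranked PRK higher than every WT sample, as for 5.61% of all features in this direction. The 4.03 percentile points between the means gave an exact permutation p of 0.00216 (0.00361 adjusted over the 5 exact tests). Ranked only among features above 0 in all samples, the difference was 6.29.

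SBPASE, in contrast, held a place near the middle of the features in both genotypes. Its rank from the brightest was 1397 to 1875 in kn09 and 1301 to 1832 in WT. The percentile was 53.9 ± 5.63 in kn09 and 54.5 ± 6.40 in WT (SD, n = 6 each), and the means differed by -0.611 percentile points, with an exact permutation p of 0.864 (0.864 adjusted over the 5 exact tests). Among features above 0 in all samples it was -3.38 (exact permutation p = 0.429). Among all features, the SD of SBPASE within each genotype was thus several percentile points, larger in size than the difference of -0.611 between the means.

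**Figure D3:**
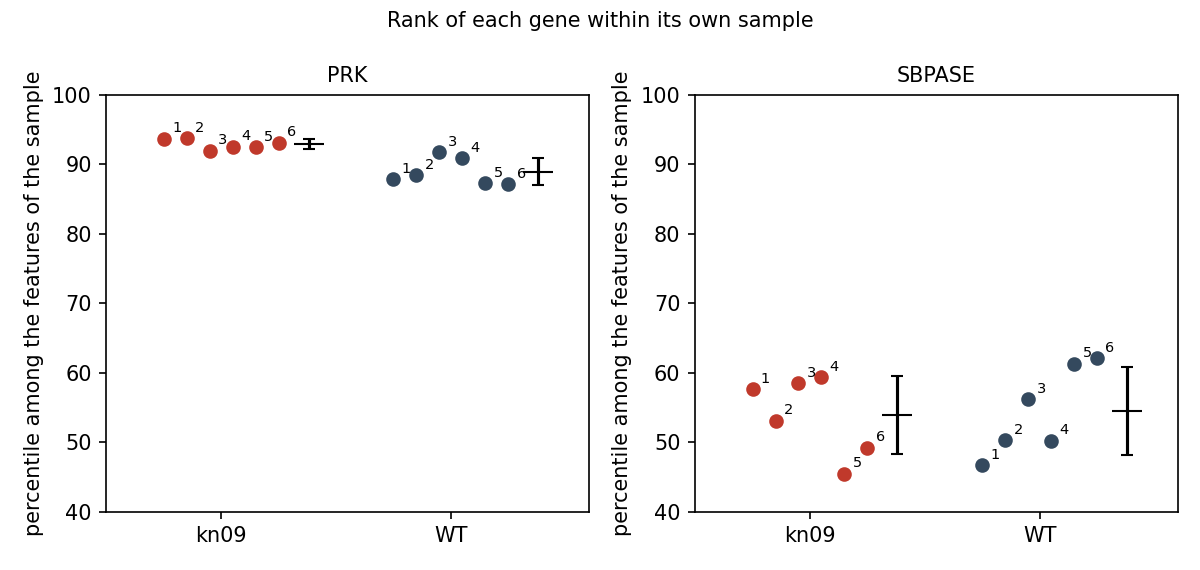
Percentile of PRK (left) and SBPASE (right) among all 3439 features of the same sample, for kn09 and WT. Points are samples with their label numbers, and bars are means ± SD (n = 6 each). PRK lies between 92.0 and 93.8 in kn09 and between 87.2 and 91.8 in WT, and the SBPASE groups overlap.

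The ratio of PRK to SBPASE within a sample is free of any factor that scales a whole sample. It compares genotypes only, because the brightness that a transcript gives on each feature is not known and the ratio is no measure of how many PRK transcripts there were per SBPASE transcript. In kn09 samples 1 to 6 the deposited ratio was 13.8, 16.7, 10.3, 11.0, 20.3 and 18.9, against 5.55, 5.23, 6.72, 7.55, 4.99 and 4.53 in WT samples 1 to 6. All kn09 ratios were above all WT ratios, and kn09 samples 3 and 4, the lowest of their genotype, were nearest to WT samples 3 and 4, the highest of theirs. The log2 ratio was 3.88 ± 0.41 in kn09 and 2.50 ± 0.28 in WT (SD, n = 6 each). The means differed by 1.37, with an exact permutation p of 0.00216 (0.00361 adjusted over the 5 exact tests). The difference lay between 1.28 and 1.48 when any single sample was left out.

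This separation was not particular to SBPASE as the partner. Among the 2192 other features above 0 in all samples, the ratio of PRK to the feature was higher in every kn09 sample than in every WT sample for 41.7%. With SBPASE as the fixed partner, the ratio of another feature to SBPASE separated the genotypes in this direction for 11.5%. The deposited difference also varied with brightness. Among features above 0 in all samples, the median deposited log2 difference was -0.30 in the brightest 25%, which holds PRK, and -0.71 in the second-brightest 25%, which holds SBPASE. From quantile-normalized values the ratio difference was 0.81, with log2 ratios of 3.54 ± 0.34 in kn09 and 2.72 ± 0.53 in WT (SD, n = 6 each). On that scale 4 of 6 kn09 samples lay above every WT sample, and the exact permutation p was 0.0108. The normalized ratio of PRK to the other features separated the genotypes in the same direction for 26.8%.

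**Figure D4:**
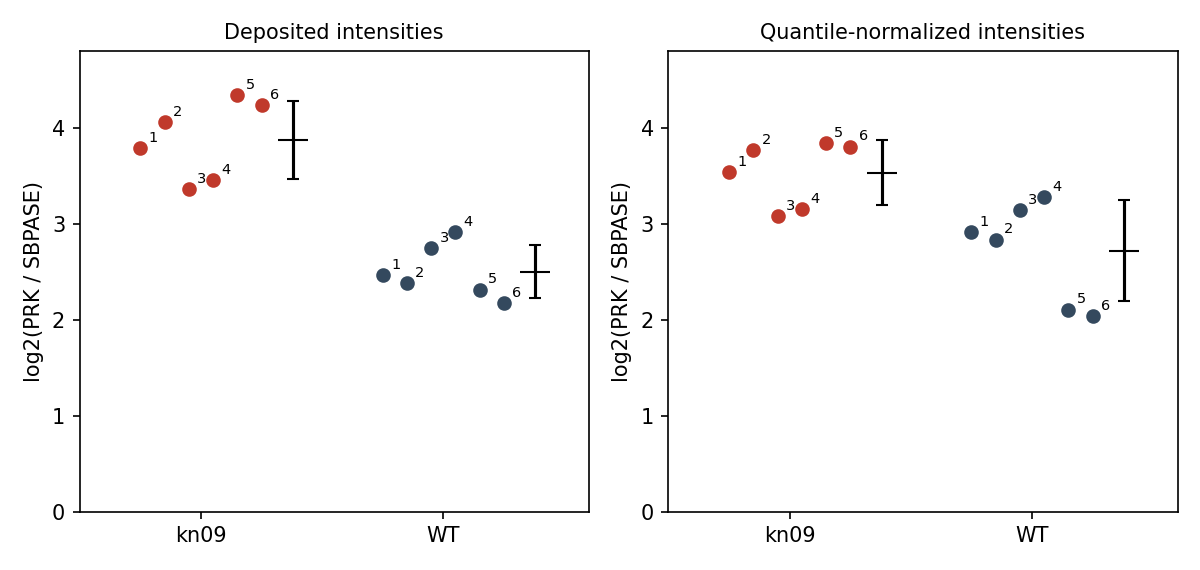
Log2 ratio of PRK to SBPASE in each kn09 and WT sample, from deposited (left) and quantile-normalized (right) intensities. Points are samples with their label numbers, and bars are means ± SD (n = 6 each). The deposited ratios do not overlap between genotypes, and on the normalized scale kn09 samples 3 and 4 lie within the WT range.

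On the deposited scale PRK had a coefficient of variation of 5.45% in kn09 and 27.0% in WT, and SBPASE had 26.6% in kn09 and 12.4% in WT. After normalization these were 11.9% in kn09 and 25.1% in WT for PRK, and 18.6% in kn09 and 22.6% in WT for SBPASE. PRK thus varied more among WT samples on both scales, while the order of the genotypes for SBPASE turned round with the scale. On the normalized scale, consecutively numbered samples lay closer together than other samples of their genotype for both genes. For PRK the mean gap in normalized log2 intensity was 0.09 within the 3 consecutive pairs and 0.24 between other samples in kn09, and 0.09 and 0.47 in WT. For SBPASE it was 0.15 within pairs and 0.39 between other samples in kn09, and 0.17 and 0.45 in WT. As deposited, the gaps within pairs were not smaller for PRK in kn09 (0.09 within pairs and between other samples) or for SBPASE in WT (0.22 within pairs and 0.19 between other samples).

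With consecutive samples averaged, leaving 3 values for each genotype, the exact permutation p of the PRK percentile, the SBPASE deposited intensity and the deposited ratio was 0.1 each, the smallest that 3 against 3 can give. For the normalized ratio it was 0.2, and the lowest pair mean of kn09, 3.12 on the log2 scale, lay below the highest of WT, 3.22.

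No relation between PRK and SBPASE from sample to sample within a genotype passed a test, and its sign in WT depended on the scale. The Pearson r of their normalized log2 values was -0.07 across the 6 kn09 samples (exact permutation p = 0.874, adjusted 0.914 over 4 correlations) and -0.26 across the 6 WT samples (exact permutation p = 0.553, adjusted 0.914). From deposited log2 values r was -0.05 in kn09 (exact permutation p = 0.914, adjusted 0.914) and 0.68 in WT (exact permutation p = 0.126, adjusted 0.506). Spearman's rho of normalized values was -0.14 in kn09 (exact permutation p = 0.803, adjusted 0.919) and -0.49 in WT (exact permutation p = 0.356, adjusted 0.919). Deposited values gave a rho of -0.09 in kn09 (exact permutation p = 0.919, adjusted 0.919) and 0.37 in WT (exact permutation p = 0.497, adjusted 0.919). Without the 2 samples farthest from the PRK median, r over the remaining 4 samples was -0.52 in kn09 and -0.80 in WT for normalized values, and -0.59 in kn09 and 0.24 in WT for deposited ones. With 6 samples even the r of 0.68 did not pass, so a relation of that size or weaker, in either direction, could go undetected.

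Little else of the cycle could be read from this array. Of 26 Calvin cycle loci listed for this purpose, which include Rubisco, its activase, the glyceraldehyde phosphate dehydrogenases, transketolase and CP12, only PRK and SBPASE lay on a feature with 1 gene. Of these 2, 1 (PRK) was higher in kn09 at a limma adjusted p under 0.05 and 0 were lower, where 4.48% of features with 1 gene and 6.48% of all features were higher, and the PRK call was lost with consecutive samples blocked or averaged (limma adjusted p = 0.0795 and 0.315). The 2 features that share a Calvin cycle gene with other genes did not pass the main test. The regulators were represented by AT2G04700, the catalytic subunit of ferredoxin-thioredoxin reductase, which passes electrons to the thioredoxins that activate both enzymes. It had 0.571 ± 0.0745 in kn09 and 0.807 ± 0.259 in WT (SD, n = 6 each), and a normalized log2 difference of -0.01 ± 0.23 (SE, limma adjusted p = 0.990). It was the only member of the 8 loci of the thioredoxin list on a feature with 1 gene.

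Transaldolase belongs to the pentose phosphate pathway, which shares sugar phosphates with the rebuilding branch and supplies roots with reducing power. AT1G12230, a transaldolase family gene and the only member of the 8 pentose phosphate loci on a feature with 1 gene, was dim. It had 0 to 0.0717 in kn09 samples and 0 to 0.0791 in WT samples. Its log2 difference of 1.73 ± 0.68 (SE) did not pass (limma adjusted p = 0.113), and the deposited means were 0.0236 in kn09 and 0.0231 in WT. The feature stood at 0 in kn09 sample 2 and in WT samples 1 and 6. Those samples entered the fit at the floor value, so the log2 difference depends on that floor.

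The named features whose normalized log2 values across the 12 samples were most like PRK were AT1G01730 (r = 0.90), AT2G25830 (r = 0.86), AT1G24310 (r = 0.81), MAMI (r = 0.81) and AT1G73470 (r = 0.80), out of 416 features with 1 gene above 0 in all samples. The median r of all 416 with PRK was 0.00, and that of SBPASE was -0.15. Of the 5, AT1G01730, AT2G25830, MAMI and AT1G73470 were higher in kn09 in limma, with log2 differences of 1.75, 1.40, 0.82 and 1.50. Of all features with 1 gene, 4.48% were higher. The 5 were picked by r with PRK, itself higher in kn09, so the pick favours such features and the count is no separate result. AT1G24310 had 0.56 ± 0.28 (SE) and did not pass (limma adjusted p = 0.190). These samples share genotype, so a common genotype difference enters every such r.

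Those most like SBPASE were AT1G34270 (r = 0.81), AT1G78620 (r = 0.81), AT5G47030 (r = 0.77), RALFL32 (r = 0.74) and AT5G02710 (r = 0.72), where the median r was 0.06. AT5G47030 encodes a subunit of the mitochondrial ATP synthase and RALFL32 a RALF-like signalling peptide. None of these 5 passed the limma test between the genotypes, with log2 differences of -0.34, -0.10, 0.43, -0.13 and -0.57 in the order given. AT1G34270, the first, had a deposited 0.0801 ± 0.0333 in kn09 and 0.186 ± 0.0602 in WT (SD, n = 6 each), a lower deposited level in kn09 without a normalized difference that passed, as for SBPASE.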

How the data were processed

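Per the labels, total RNA from roots of 6 kn09 and 6 WT samples was measured. In the deposited table each feature has 1 intensity per sample. The steps by which the authors scanned, corrected and scaled the arrays, and the genome build, were not given in the sources used here. All 12 sample columns were used. The number of arrays limits the precision.

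Intensities were quantile normalized in limma 3.58.1 (R 4.3.3). A floor at the 1st percentile of positive normalized values (0.0062) replaced zeros and anything lower, and log2 values were tested with lmFit and eBayes, genotype as the only term, with Benjamini-Hochberg adjustment over 3439 features. The code was tested on simulated data. Deposited intensity, percentile (ties at the mean rank) and ratio were compared by exact 2-sided permutation over samples. Names came from the platform annotation, updated by Entrez identifier for 690 of 692 features with 1 gene. Named genes were the pair, list members on features with 1 gene, and the features most like each by Pearson r (5 over the 12 samples, 3 by deviations from genotype means). The members and lists were chosen with earlier results of these data known.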

Additional observations from a re-analysis of the deposited data

How the results depend on the processing

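SBPASE had a log2 difference of -0.84 without normalization, past the threshold, against -0.03 with quantile normalization. Leaving out single samples moved its log2 difference between -0.11 and 0.0503 and its percentile difference between -2.17 and 1.07, and without kn09 samples 5 and 6 or WT samples 5 and 6 its log2 difference was 0.13 and 0.15. Among features with 1 gene only, its percentile difference was 0.241, and among features above 0 in all samples -3.38, where that of PRK was 6.29. On the deposited scale, an alternative chosen after seeing the data, the r of PRK with SBPASE in WT was 0.68 in place of -0.26. The PRK log2 difference lay between 0.72 and 0.88 without single samples. Its call was lost at 0.68, 0.86 and 0.79 without kn09 samples 1 and 2, 3 and 4, or 5 and 6. The call was also lost at 0.64 without WT samples 5 and 6, and held at 0.71 and 0.99 without the other WT pairs. All of these fits had fewer samples than the main one. With consecutive samples as a random block or averaged the PRK call was lost at the same difference of 0.78 (limma adjusted p = 0.0795 and 0.315). With averages the exact permutation p was 0.1 for the ratio (1.37), the PRK percentile (4.03) and the deposited PRK (0.536) and SBPASE (-0.0977) differences, the smallest it can give. The cause of each loss was not tested.

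By the labels, same-numbered samples of the genotypes share only a number. Their deviations from genotype means correlated at 0.0683 to 0.0995, low but all positive, and 12 of 12 samples correlated best with their own number. Whether same-numbered samples were handled together is not stated and was not tested. With the replicate block 211 features passed in place of 440, the PRK log2 difference of 0.78 had a limma adjusted p of 0.0775, and for the deposited PRK difference of 0.536 the exact sign-flip permutation gave p = 0.0625.

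Over all features 440 passed (223 higher, 217 lower), against 1257 without normalization (99 higher, 1158 lower), 82 with the random block and 16 with averages, where 554 had an unadjusted p under 0.05. With median scaling 650 passed (451 higher, 199 lower) and with the 75th percentile 652. Without single samples 183 to 506 passed. Without kn09 samples 1 and 2, 3 and 4, or 5 and 6 the counts were 134, 202 and 188, and without the same WT samples 813, 135 and 207.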

Other observations

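The features that moved most like PRK among samples of the same genotype, by deviations from genotype means, were AT3G09490 (r = 0.85), LHB1B2 (r = 0.84) and CUTA (r = 0.83), of 416 compared with a median r of -0.01. As the highest of 416 values over 12 samples, these r were not tested and show no relation by themselves. LHB1B2, a light-harvesting protein of photosystem II, had a deposited 33.1 ± 6.78 in kn09 and 34.8 ± 5.44 in WT (SD, n = 6 each) and a log2 difference of -0.24 ± 0.22 (SE), which did not pass (limma adjusted p = 0.498). CUTA fell in kn09, with 5.51 ± 0.956 in kn09 and 10.4 ± 3.42 in WT (SD, n = 6 each) and a log2 difference of -0.92 ± 0.26 (SE, limma adjusted p = 0.0407), whereas PRK was higher in kn09. AT3G09490 had a log2 difference of -0.04 ± 0.41 (SE). By the same measure AT1G34270 (r = 0.85), AT2G37510 (r = 0.84) and AT5G47030 (r = 0.84) were most like SBPASE, and PRK and SBPASE had r = -0.19. Both genes of each r were read from the same array of a sample, and genes are not independent replicates.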
